A study of Rattus norvegicus with 3 samples.

Results

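The genes described here are 10 genes of the cell division cycle, measured in renal proximal tubules isolated from male Sprague-Dawley rats aged 7 to 8 weeks. They were Mki67, Top2a, Ccnb1, Ccna2, Ccnd1, Cdk1, Hmmr, Bub1b, Pcna and Cdkn1a, and they were chosen by gene symbol, with earlier results of these arrays known, so their values are given as a description and no test was made on them. All 10 had at least 1 probe set that named a single gene. Together they held 16 of the 20826 such probe sets and 10 of the 14217 named genes on the Affymetrix rat array, on which each gene is read by short probes summarised as a probe-set signal. The 3 arrays formed 1 group with no control. Each came from a tubule preparation of animals injected with 250 units of heparin 30 min before decapitation, whose kidneys were perfused with cold phosphate-buffered saline (10 ml) and then warm collagenase (10 ml, 2 mg/ml), after which the cortex was digested for 20 min and the tubules were taken from a 42.5% Percoll gradient. The labels do not say how many animals made up a preparation, or whether the preparations came from different animals, so the spread between arrays may be partly technical.

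A cell that divides passes through a growth phase, a phase of DNA synthesis and mitosis. Cyclin D1 with its kinase partners starts the cycle by switching off the retinoblastoma proteins, which releases E2F transcription factors and the genes of DNA synthesis. The genes of mitosis are switched on later, and in resting cells the DREAM complex keeps many of them silent through a promoter element called the cell cycle gene homology region (CHR), often beside NF-Y boxes. Most cells of the adult proximal tubule rest outside the cycle, and they can re-enter it after injury.

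All 10 listed proximal tubule markers exceeded the median of each array, where 61% of all named genes did. Among them was Lrp2, the endocytic receptor megalin, at 8550 ± 570 (mean ± SD, n = 3, as for every mean below). All 5 thick ascending limb markers and all 8 measured endothelium markers also exceeded it, so this count does not measure purity. The array medians were 37.1, 37.4 and 34.9 on arrays 1, 2 and 3, the 75th percentiles 181, 167 and 167. As a measure of RNA integrity, the beta-actin controls had 3' over 5' signal ratios of 3.85, 3.28 and 3.66, and the GAPDH controls had 1.52, 1.52 and 1.40. Probe sets differ in affinity, so the levels of different genes are not ranked against each other.

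Mki67, Top2a, Ccnb1, Ccna2, Cdk1 and Hmmr, which act in DNA synthesis and mitosis, all had their lowest signal on array 3 and their highest on array 1, which was 1.84 to 2.83 times higher. After centring on the array medians, 22 of 33 other mitosis genes above the array median had the same highest and lowest array. Of all genes above the array median, 19.6% did. Ccnd1 and Pcna stayed within 1.31 times over the 3 arrays by their probe sets of highest signal, and Cdkn1a within 1.13 times. Pcna too had its highest deposited signal on array 1 and its lowest on array 3, but was lowest on array 2 after centring. The promoters of 6 of the genes are printed below. In Mki67, Top2a, Cdk1 and Hmmr they hold 2 kinds of short motif, the CHR and the NF-Y box. A link between motifs and array order was not tested. Among genes above the array median and outside the lists used here, 77 held a CHR and at least 2 NF-Y boxes. Of these, 27.3% were lowest on array 3 after centring, against 27.5% of all such genes with a promoter entry.

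The sequences are the 250 bases before the annotated start site, 5' to 3' on the gene's strand, from the RefSeq promoter table of the GRCr8 assembly, which held 8 of the 10 genes. Ccna2 and Ccnd1 had no entry. Capitals mark the NF-Y box (CCAAT, or ATTGG for the opposite strand) and the CHR (TTTGAA, or TTCAAA for the opposite strand). The windows lie at chr1:199952594-199952843 (minus strand) for Mki67, chr20:19265043-19265292 (plus) for Cdk1, chr10:84473094-84473343 (minus) for Top2a, chr10:25665216-25665465 (minus) for Hmmr, chr2:33655226-33655475 (minus) for Ccnb1 and chr3:139955821-139956070 (minus) for Pcna. The annotated gene reaches 254 bases upstream of the start site used for Mki67, 174 bases for Hmmr and 41 bases for Cdk1, so those windows lie wholly or partly inside the gene.
Mki67: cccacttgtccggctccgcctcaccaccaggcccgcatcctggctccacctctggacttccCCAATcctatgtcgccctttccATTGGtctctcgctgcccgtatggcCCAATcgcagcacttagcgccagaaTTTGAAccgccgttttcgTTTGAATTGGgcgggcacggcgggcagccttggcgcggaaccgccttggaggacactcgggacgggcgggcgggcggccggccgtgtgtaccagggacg
Cdk1: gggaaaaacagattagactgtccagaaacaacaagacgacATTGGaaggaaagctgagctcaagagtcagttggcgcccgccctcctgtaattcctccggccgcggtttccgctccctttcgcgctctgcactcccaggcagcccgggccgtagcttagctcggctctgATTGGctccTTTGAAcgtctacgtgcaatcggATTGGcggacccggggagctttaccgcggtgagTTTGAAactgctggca
Top2a: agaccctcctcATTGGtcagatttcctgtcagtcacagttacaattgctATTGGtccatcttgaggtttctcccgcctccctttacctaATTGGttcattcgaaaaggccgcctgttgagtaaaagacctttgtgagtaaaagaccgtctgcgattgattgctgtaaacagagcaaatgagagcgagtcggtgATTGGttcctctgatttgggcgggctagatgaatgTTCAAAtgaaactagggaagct
Hmmr: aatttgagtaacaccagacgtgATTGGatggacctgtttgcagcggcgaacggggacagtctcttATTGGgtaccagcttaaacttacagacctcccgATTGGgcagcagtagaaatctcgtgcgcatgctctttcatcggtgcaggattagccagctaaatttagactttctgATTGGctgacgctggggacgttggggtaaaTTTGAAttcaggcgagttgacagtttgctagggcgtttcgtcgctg
Ccnb1: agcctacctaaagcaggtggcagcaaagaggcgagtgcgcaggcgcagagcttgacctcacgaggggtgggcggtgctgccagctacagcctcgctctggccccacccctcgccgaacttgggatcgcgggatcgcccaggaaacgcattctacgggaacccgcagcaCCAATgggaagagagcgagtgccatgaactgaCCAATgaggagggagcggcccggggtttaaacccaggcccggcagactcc
Pcna: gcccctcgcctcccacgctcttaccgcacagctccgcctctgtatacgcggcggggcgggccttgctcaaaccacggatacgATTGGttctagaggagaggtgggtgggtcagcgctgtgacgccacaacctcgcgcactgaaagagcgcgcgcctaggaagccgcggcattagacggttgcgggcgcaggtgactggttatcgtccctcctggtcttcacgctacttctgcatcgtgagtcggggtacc

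Mki67, Cdk1, Top2a and Hmmr each held at least 1 CHR and at least 3 NF-Y boxes on either strand. With the last base of the window as -1, the CHR matches of Cdk1 began at -72 and -16 and its NF-Y boxes at -210, -81 and -49. In Mki67 the CHR from -99 to -94 shared its last base with the NF-Y box from -94 to -90. Ccnb1 held 2 NF-Y boxes and no match to these CHR letters, and Pcna held 1 NF-Y box and no CHR. Bub1b and Cdkn1a, whose sequences are not printed, held no match to either in this window. Their windows also lie partly inside the annotated gene, which reaches 48 bases upstream of the start site used for Bub1b and 112 bases for Cdkn1a. Among the 19005 protein-coding genes in the table, 35.5% held an NF-Y box, 15.2% a CHR, 5.67% both, and 1.75% a CHR with at least 2 NF-Y boxes. An E2F site, searched as TTTCCCGC, TTTGGCGC or TTTCGCGC on both strands, stood in 1.92% of all windows and, of the 8 genes, in that of Cdk1. The GC box (GGGCGG, either strand) stood in 40.3% of all windows and matched in Mki67, Cdk1, Top2a, Ccnb1 and Pcna. In Mki67 the GC box from -91 overlapped the same NF-Y box. The TATA box (TATAAA, either strand) stood in 12.3% and matched in none of the 8. A match is a run of letters and not a measured binding site.

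**Figure D1:**
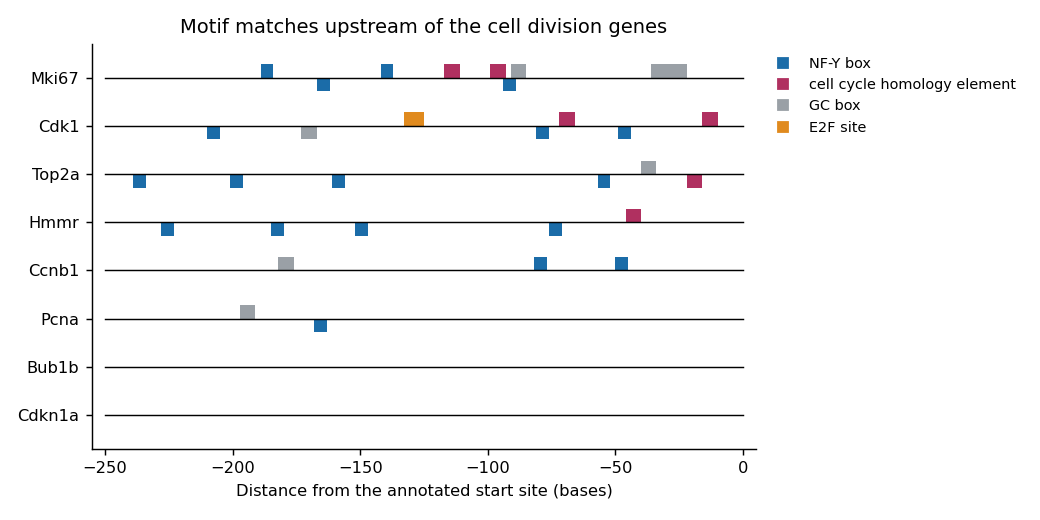
Motif matches in the 250 bases before the start site of the 8 cell division genes in the promoter table, with the distance from the start site in bases on the x axis and 1 line per gene. Boxes above a line are matches on the gene's strand, boxes below it matches on the opposite strand, and the cell cycle homology element (red) is seen in Mki67, Cdk1, Top2a and Hmmr.

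The first question was which of the genes gave a signal clear of the lower part of the array. By its probe set of highest mean signal, 9 of the 10 genes exceeded the median of each array, where 61% of all named genes did. Only Bub1b of the 10 lay below it on all 3, where 32.1% of all named genes did. Of 15 measured markers of non-kidney tissue, 1 exceeded it on each array, Ins1 at 54.1, 46.9 and 54.9. On array 3, Hmmr (51.1) and Top2a (55.1) were near that signal. Exceeding the median therefore does not by itself show a signal above background. Against the 75th percentile, 2 of the 10, Ccnd1 and Pcna, lay above on all 3 arrays, where 36.4% of all named genes did. The signals of the other 7 were therefore in the range between the median and the 75th percentile on at least 1 array.

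The genes that start the cycle were represented by Ccnd1, which encodes cyclin D1. Its probe set of highest signal gave 1972, 1560 and 1594 on arrays 1, 2 and 3 (1708 ± 229). The others gave 2024, 1375 and 1462, and 959, 585 and 602. All 3 probe sets were highest on array 1 and lowest on array 2, and arrays 2 and 3 lay close together in each. The ratio of the highest to the lowest array was 1.26, 1.47 and 1.64, so the probe sets differed in its size but not in the order of the arrays.

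Pcna, the sliding clamp that holds DNA polymerase on its template and also serves DNA repair, gave 1459.8, 1156 and 1117 (1244 ± 188). Like Ccnd1, it was highest on array 1 with arrays 2 and 3 close together. Ccna2, which encodes cyclin A2 of DNA synthesis and early mitosis, gave 118, 77.7 and 62.2 (86.1 ± 29.0). Array 1 stood 1.52 times above array 2, and array 2 stood 1.25 times above array 3. Top2a, the topoisomerase that untangles sister chromosomes, gave 115, 97.5 and 55.1 (89.3 ± 30.9) by one probe set and 118, 87.1 and 46.7 by the other. Both probe sets, which were designed on the same sequence record, were lowest on array 3.

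Cdk1, the kinase that drives entry into mitosis, gave 220.0, 196 and 105 (174 ± 60.7). Its partner cyclin B1, Ccnb1, gave 160.1, 139 and 87.0 (129 ± 37.7) by one probe set and 96.6, 95.3 and 58.6 by the other. In each case arrays 1 and 2 lay nearer to each other than to array 3. Mki67, the proliferation antigen that coats mitotic chromosomes and is used to count cycling cells, gave 227, 176 and 104 (169 ± 61.9). Hmmr, a hyaluronan receptor that also binds the mitotic spindle, gave 145, 117 and 51.1 (104 ± 48.1) by one probe set and 111, 80.8 and 47.4 by the other. The Hmmr probe set of highest signal had an array 1 signal 2.83 times that of array 3, the highest such ratio among the 9 probe sets of the 6 genes lowest on array 3.

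Bub1b, a kinase-like protein of the spindle checkpoint, was read by 1 probe set at 3.80, 25.2 and 3.21 (10.8 ± 12.6). Its high value was on array 2, and it lay below the array median on each array. Cdkn1a, the p21 inhibitor of cyclin-dependent kinases and a target of p53, gave 109, 100.5 and 113 (107 ± 6.47) by its probe set of highest signal. Its other probe set gave 2.98, 2.20 and 11.2, below the array median on every array. The pair disagreed in level, and both were highest on array 3.

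**Figure D2:**
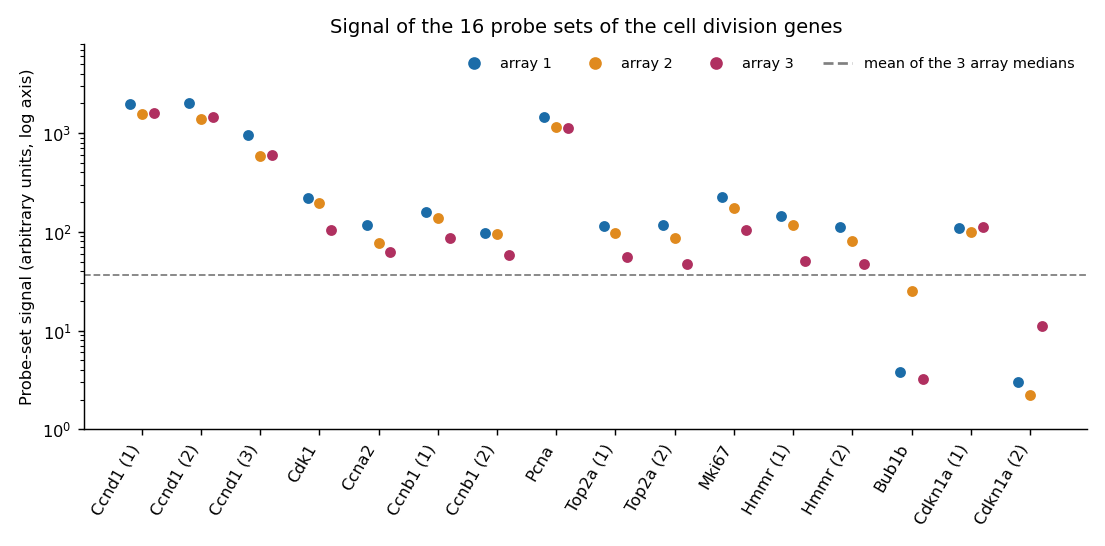
Signal of each of the 16 probe sets (log axis, arbitrary units) on arrays 1, 2 and 3, with probe sets of 1 gene numbered from the highest mean signal. The dashed line is the mean of the 3 array medians. The array 3 point is the lowest for Cdk1, Ccna2, Ccnb1, Top2a, Mki67 and Hmmr. On this uncentred scale it is also the lowest, by a small margin, for Pcna (1117 against 1156 on array 2) and Bub1b (3.21 against 3.80 on array 1).

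The arrays were next set against each other on the scale of log2(signal + 16), centred on each array's median. The arrays have no order, and each is a single preparation. On this scale 6 of the 10 genes, the 6 named above, were lowest on array 3, where 27.2% of all named genes were. All 9 of their probe sets were lowest on array 3 and highest on array 1, and 49.9% of all genes above the array median were highest on array 1. The deviation from the gene's own mean on array 3 was -0.52 for Mki67, -0.48 for Top2a, -0.41 for Ccnb1, -0.30 for Ccna2, -0.55 for Cdk1 and -0.70 for Hmmr, whereas the median deviation of all named genes there was 0.02. For Ccnd1, Pcna and Cdkn1a it was -0.05, -0.10 and 0.11. For Bub1b, below the array median, it was -0.34, near its -0.36 on array 1. Of the 10 genes, 8 were lowest on array 3 without centring, where 38.1% of all named genes were, and 9 with quantile normalization, where 33.5% were. The number was 6 with probe sets averaged per gene, where 26.9% of all genes were lowest there, and 5 of 9 with only probe sets free of a shared-transcript suffix, where 27.1% were. The 6 genes had ratios of array 1 over array 2 of 1.12 to 1.52 and of array 2 over array 3 of 1.25 to 2.28. Only Ccna2 differed more between arrays 1 and 2 than between arrays 2 and 3.

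The SD of a gene as a share of its mean had a median of 33.7% over the 9 genes above the array median and of 11.3% over all such genes. These medians are not matched for signal level, since only Ccnd1 and Pcna of the 9 exceeded the 75th percentile of each array. The range over the arrays reached 1 log2 unit for 2 of the 10 genes, Hmmr (1.20) and Bub1b (1.05), where 4.46% of all named genes did. Of the 9 genes above the array median it was 1, where 1.37% of all such genes did. Mki67 (0.96) and Cdk1 (0.90) came next. Without array 1, 2 or 3 the number was 1 in each case. Array 3 sets the low end of the range for the 6 genes, and array 2 sets the high end for Bub1b.

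**Figure D3:**
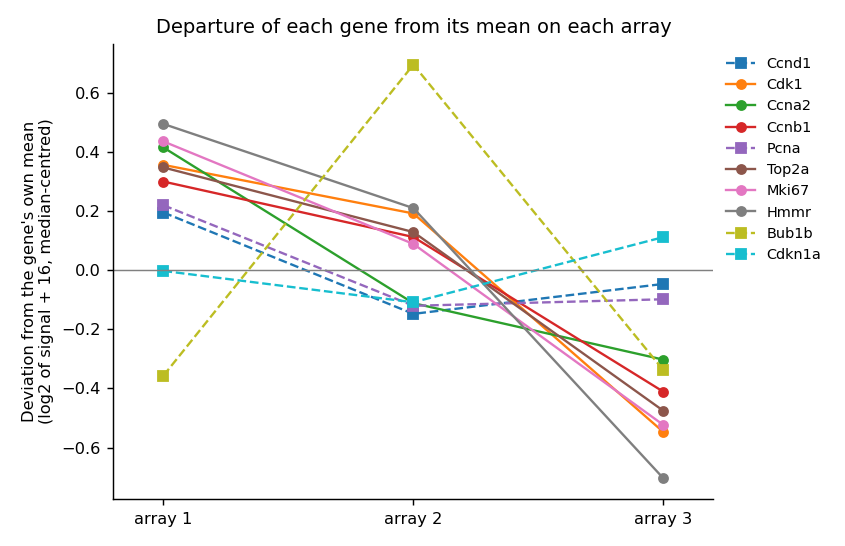
Deviation of each of the 10 genes from its own mean (log2 of signal + 16, median-centred) on the 3 arrays, with solid lines and circles for the 6 genes lowest on array 3 and dashed lines and squares for Ccnd1, Pcna, Bub1b and Cdkn1a. Lines only join the points of 1 gene, since the arrays have no order, and on array 3 the solid lines end between -0.30 and -0.70 and Bub1b at -0.34.

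Other mitosis genes were examined for the same feature. Of 53 measured genes in a list of 60, 33 exceeded the median of each array (61% of all named genes did), and 30 of these 33 were lowest on array 3 after centring, where 28% of all such genes were. After centring, the exceptions were Plk1, a mitotic kinase, Bub3, a checkpoint protein that also acts in splicing, and Smc4 of condensin, the last named after its values were seen. Plk1 gave 46.7, 47.3 and 47.4, Bub3 gave 918, 865 and 826, and Smc4 gave 75.6, 75.5 and 92.0. Bub3 had its lowest deposited signal on array 3, and after centring its deviations on arrays 2 and 3 were both -0.03. Ccnb2, the other B-type cyclin, gave 202, 175 and 109.7, much as Ccnb1 did, and Cks2, a subunit of the cyclin-dependent kinases, gave 488, 268 and 169. Cdca3, which helps to degrade the mitosis inhibitor Wee1, gave 244, 260.0 and 114. Both Cks2 (1.38) and Cdca3 (1.01) ranged by more than 1 log2 unit, and both were lowest on array 3. Kif11, a spindle motor, gave 783, 645 and 597, and Stmn1, which destabilises microtubules, gave 3346, 2946 and 2689. These were also lowest on array 3, but array 1 was within 1.5 times of it.

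Other mitosis genes fixed for naming had lower signals. Foxm1, the transcription factor of mitotic genes, gave 48.1, 44.9 and 27.5, Birc5, the chromosomal passenger survivin, 50.4, 47.2 and 34.5, and Aurkb, its kinase partner, 50.8, 34.8 and 43.1. Cenpe, a kinetochore motor, gave 13.9, 2.48 and 2.44, and Cenpa, the centromeric histone, gave 16.5, 18.3 and 1.76. After centring, Foxm1, Birc5 and Cenpa were lowest on array 3, and Aurkb and Cenpe were lowest on array 2. No detection calls were used here.

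DNA replication genes were often lowest on array 3 too, with smaller ratios. Of 43 measured genes in a list of 47, 31 exceeded the median of each array, and 22 of the 31 were lowest on array 3, where 28% of all genes above the median were. Mcm5 and Mcm2, subunits of the helicase that opens DNA, gave 103, 87.3 and 43.9, and 167, 147 and 127. Orc4 of the origin recognition complex gave 376, 341 and 316, Rrm1 of ribonucleotide reductase 477, 392 and 344, Rpa3 of the single-strand binding protein 535, 502 and 528, and Dut, which removes dUTP, 1412, 1178 and 1134. All 6 had their highest signal on array 1 as deposited, and Rpa3, which varied by 1.07 times, was highest on array 3 after centring. Orc1, also of the origin recognition complex, gave 2.34, 1.63 and 3.60 and Gmnn, the inhibitor of origin licensing, 27.4, 22.3 and 15.5.

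To set the lists side by side, the ratio of array 1 to array 3 was taken over the genes above the array median on all 3 arrays. Its median was 1.90 over the 9 cell division genes, 1.72 over mitosis genes, 1.33 over DNA replication genes and 1.15 over cyclins, kinases and the Rb/E2F switch, against 1.08 over all 8674 such genes. It was 1.05 for inhibitors and quiescence genes, and 1.07 for both p53 targets and growth factor receptors. A ratio of 1.5 or more was reached by 6 of 9 cell division genes, 21 of 33 mitosis genes, 10 of 31 DNA replication genes and 3 of 18 genes of the Rb/E2F list, where 5.67% of all such genes reached it. A ratio of 2 or more was reached by 4 of 9, 8 of 33, 4 of 31 and 0 of 18, where 0.888% of all such genes reached it. This ratio was not among the planned results, and arrays 1 and 3 are the highest and lowest arrays of the 6 genes named above. The high values of the cell division genes therefore follow in part from the choice of arrays. The lists were chosen with earlier results of these arrays known, so these shares describe the lists and carry no test.

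**Figure D4:**
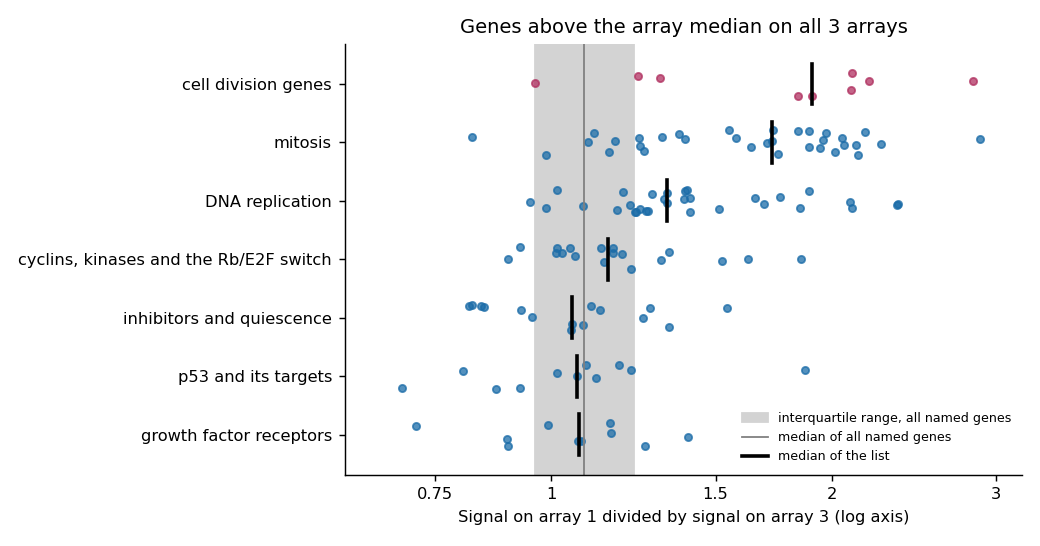
Signal on array 1 divided by signal on array 3 (log axis) for each gene above the array median on all 3 arrays, with 1 row per gene list and the list's median as a black bar. The cell division genes and mitosis genes have medians of 1.90 and 1.72, to the right of the grey band that spans the interquartile range of all named genes around 1.08.

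Regulators of entry into the cycle included both kinase partners of cyclin D1. Cdk4, a kinase partner of cyclin D1, gave 684, 605 and 645 (645 ± 39.2), while Cdk6, the alternative partner, gave 1.53, 0.449 and 1.66. Of the other D-type cyclins, Ccnd3 gave 188, 184 and 179.8, and Ccnd2 gave 30.1, 38.3 and 32.7. The cyclin E gene Ccne1 gave 4.12, 14.4 and 5.65, and its kinase Cdk2 gave 173, 118 and 114. Cdk2 thus had array 1 highest with arrays 2 and 3 close together, as Ccnd1 and Pcna did. Rb1 and Rbl2, the pocket proteins that hold E2F factors in check, gave 313, 280.1 and 276, and 444, 396 and 433. E2f4, the E2F factor of resting cells and of the DREAM complex, gave 291, 284 and 218. The activator E2f1 gave 58.6, 50.4 and 36.0. E2f5, Tfdp1 and Ccnh gave means of 451 ± 36.2, 451 ± 39.3 and 567 ± 47.0. Of the 24 measured genes in this list of 26, 18 exceeded the median of each array and none ranged by 1 log2 unit, where 61% and 4.46% of all named genes did.

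Other brakes on the cycle were listed beside Cdkn1a. Cdkn1b, the p27 inhibitor, gave 813, 763 and 738 (771 ± 38.1), Foxo3, a transcription factor that favours rest, 536, 521 and 509, and the antiproliferative genes Btg1 and Tob1 gave 1004, 1108 and 1221, and 987, 1271 and 1175. Btg1 and Tob1 were lowest on array 1. After centring, 5 of the 18 measured genes of this list were lowest on array 1, where 26.4% of all named genes were. Another 9 of the 18, among them Cdkn1b and Foxo3, were highest there, as were 5945 of the 14217 named genes. Cdkn1c, the p57 inhibitor, gave 24.8, 40.1 and 28.8, and the senescence-linked inhibitors Cdkn2a and Cdkn2b gave means of 6.44 ± 4.10 and 5.26 ± 1.94. Of the 18 measured genes in this list of 19, 15 exceeded the median of each array and 4 of the 18 were lowest on array 3, where 61% and 27.2% of all named genes did or were.

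Targets of p53 were examined because Cdkn1a is one of them. Ccng1, a cyclin induced by p53, gave 1146, 1330 and 1238 (1238 ± 91.7), Mdm2, the ligase that degrades p53, 305, 369 and 273, and Gadd45a, a growth arrest gene, 558, 375 and 459. These 3 were not both highest on array 1 and lowest on array 3. Of the 11 targets above the array median 2 were, where 19.6% of all such genes were, and these were Aen, a nuclease, at 121, 109 and 64.6 and Mdm4, a relative of Mdm2, at 146, 142 and 124, both named after their values were seen. Perp and Ei24 gave means of 1908 ± 160 and 1001 ± 64.5, Sesn2, a stress-induced regulator of growth signalling, gave 747, 692 and 1082, and Phlda3 and Fas gave means of 5.59 ± 1.80 and 8.20 ± 2.76. Sesn2, like Cdkn1a, was highest on array 3. After centring, 3 of the 11 targets above the array median were highest there and 5 were highest on array 1. Over all such genes 34.9% and 49.9% were. Of the 16 measured genes in this list of 22, 11 exceeded the median of each array, 3 of the 16 were lowest on array 3, and none ranged by 1 log2 unit. These shares are 61%, 27.2% and 4.46% over all named genes.

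Growth factor receptors, which lie upstream of cyclin D1, were lowest on array 2 in 9 of 12 cases, where 46.4% of all named genes were. Igf1r gave 486, 338 and 347 and Egfr 127, 71.7 and 101. The means of the others were 138 ± 26.2 for Erbb2, 127 ± 21.1 for Erbb3, 55.6 ± 7.71 for Met, 154 ± 14.5 for Insr, 302 ± 26.4 for Pdgfra and 16.6 ± 5.08 for Pdgfrb, and from 35.7 to 270.1 for Fgfr1, Fgfr2, Fgfr3 and Fgfr4. Genes of meiosis, the division of germ cells, served as division genes of another tissue. Of 6 measured, 5 lay below the array median on all 3 arrays, where 32.1% of all named genes did, with means of 3.47 to 13.9 for Sycp1, Sycp2, Smc1b, Sycp3 and Stag3. Spo11, which cuts DNA in meiosis, gave 138, 102 and 121.

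Because other cells in the preparation could divide, markers of other cell types were set beside the cell division genes. The summed signal was 4530, 3644 and 3291 for the 10 genes and 10012, 8628 and 6881 for the mitosis genes on arrays 1, 2 and 3, lowest on array 3 in both. Ccnd1 and Pcna made up most of the sum of the 10 genes, at 3432, 2715 and 2711, and the 6 genes lowest on array 3 summed to 985, 803 and 464. Markers of endothelium had their lowest sum on array 1 (997, 1324 and 1536). Of these, 8 of 8 measured genes lay above the median of each array, where 61% of all named genes did. Lymphocyte markers summed to 89.3, 82.0 and 96.7 with 0 of 8 above it, macrophage markers to 868, 766 and 982 with 3 of 10, and fibroblast and mural markers to 507, 483 and 591 with 3 of 8. In these 4 lists the sum was highest on array 3. It was also highest there for the distal and collecting duct markers given below. The same held for markers of non-kidney tissue (216, 199 and 247), of which 1 of 15 measured exceeded the median of each array. Lyz2 (623, 580 and 732) made up most of the macrophage sum, and Pdgfra (316, 272 and 319) most of the fibroblast and mural sum. Thick ascending limb markers summed to 12538, 10423 and 11061, with 5 of 5 above the median of each array. Distal and collecting duct markers summed to 1875, 1676 and 2157 with 3 of 7 above it, and proximal tubule markers to 70752, 64091 and 67182 with 10 of 10. Markers of injured or repairing tubule summed to 1555, 1835 and 1287, a sum lowest on array 3. In that list Spp1 (584, 1048 and 554) and Prom1 (762, 562 and 496) made up most of the sum. Havcr1, the kidney injury molecule, gave 19.6, 16.3 and 21.2 (19.0 ± 2.51) and was highest on array 3. After centring, 3 of the 8 measured genes were lowest on array 3, where 27.2% of all named genes were. No marker was listed at 0 on any array. Which cells carried the cell division transcripts was not tested, and the part of RNA integrity and of other cell types in the result was not tested. In whole preparations, fewer dividing cells and less RNA per dividing cell cannot be told apart.

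**Figure D5:**
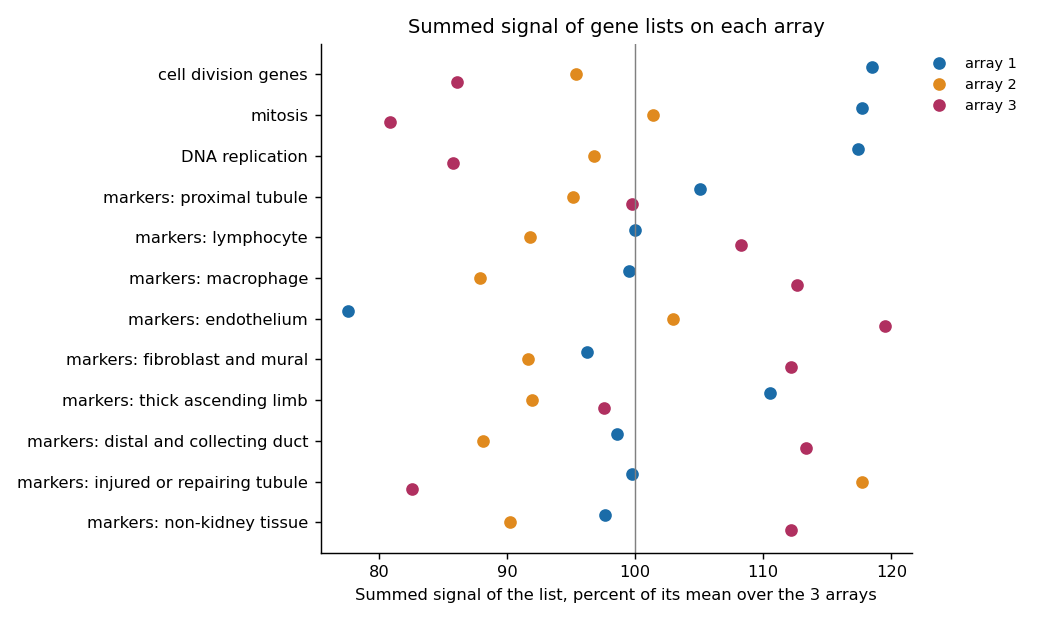
Summed signal of each gene list on the 3 arrays, as a percent of the list's own mean over the arrays, with 1 row per list. The cell division genes, mitosis and DNA replication lists have array 1 at the high end and array 3 at the low end, and the endothelium list has the opposite order.

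Genes with the most similar profile over the 3 arrays were found by the distance between deviations, among the 7108 genes above the median mean level. For Mki67 the nearest were Becn1, an autophagy gene, at 0.01 log2 units and Cdkn3, a phosphatase of the cell cycle, also at 0.01. For Ccnb1 they were Fbxo4 and Ccnb2, both at 0.01. For Cdk1 they were Lurap1l (0.04) and Cdc42ep2 (0.05), for Top2a Zfp386 (0.01) and Chchd6 (0.02), and for Ccna2 Srp19 (0.02) and Ddx52 (0.02). For Hmmr they were LOC100912002 (0.14) and Prnp (0.17). With 3 arrays a profile is easily matched, and the number of genes within 0.1 log2 units was 21 for Mki67, 30 for Ccnb1, 10 for Cdk1, 28 for Top2a, 37 for Ccna2 and 0 for Hmmr. It was 848 for Ccnd1, 638 for Pcna and 1063 for Cdkn1a, whose profiles were near those of many genes. Among the 7108 genes, 30 ranged by 1 log2 unit or more with the low end on array 3, of which 3 (Hmmr, Cks2 and Cdca3) belonged to the cell division, Rb/E2F, DNA replication or mitosis lists. That is 10% of the 30 and 5.08% of the 59 genes of these lists above the median mean level, which made up 0.83% of the 7108.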

How the data were processed

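Transcripts of 3 proximal tubule preparations were measured on 1 Affymetrix array each. The authors deposited linear signal intensities per probe set, and the summarisation software and the scaling between arrays are not given in the sources used here. The arrays' number limits the precision of every value.

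Of 31099 probe sets, 57 control probe sets were left out. Symbols came from the platform annotation, in which 20826 probe sets named 1 gene, 436 several and 9780 none. All 16 probe sets of the 10 genes matched a RefSeq gene of GRCr8 with the same symbol. Each gene took its probe set of highest mean signal. Differences between arrays used log2(signal + 16) centred on array medians, and a 2-fold range was 1 log2 unit. Genes and lists were chosen with earlier results of these data known, so there is no test. Named genes were the 10, and in each other list the 4 highest and 2 lowest by mean signal, all genes of lists of at most 12, genes above the median mean level with a 2-fold range and preset genes, and for likeness the 2 nearest genes. Not all are named. The counts of range and lowest array were tried on simulated arrays. The genes lowered there had higher signals and a larger drop than the 6 genes lowest on array 3, so that run does not cover genes like these. Alternatives were other probe-set rules, lines, pseudocounts, scalings, a filter on low values and leaving out each array. Python 3.11.15, pandas 2.3.3, numpy 2.4.6 and matplotlib 3.10.9 were used.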

Additional observations from a re-analysis of the deposited data

How the results depend on the processing

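No paired analysis was possible because all arrays form 1 group. With the 75th percentile in place of the array median, the genes above the line on all 3 arrays were 2 of the 10 cell division genes, 11 of the Rb/E2F list, 7 of DNA replication, 4 of mitosis, 8 of inhibitors and quiescence, 7 of p53 targets, 5 of growth factor receptors and 0 of meiosis (36.4% of all named genes), against 9, 18, 31, 33, 15, 11, 10 and 1 with the median (61% of all named genes). A higher line leaves fewer genes by construction. The number of cell division genes ranging 2-fold, 2 in the report, was 0 with a pseudocount of 64, 1 among the 7 genes above the median mean level, 3 with a pseudocount of 1 and 3 without centring, and 1 without each array in turn. A larger pseudocount shrinks the range of low signals by construction.

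Over all 53 measured mitosis genes, 41 were lowest on array 3, 44 without centring, 42 with quantile normalization, 41 with probe sets averaged per gene and 40 of 52 with only probe sets free of a shared-transcript suffix, where 27.2%, 38.1%, 33.5%, 26.9% and 27.1% of all named genes were. These alternatives, and the same counts of the 10 genes, were chosen after seeing the data. Cdkn1a averaged 56.5 and Ccnd1 1348 when their probe sets were averaged.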

Other observations

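The array values of genes with the promoter motifs of the cell division genes were also read over all named genes above the array median on all 3 arrays, a comparison chosen after the data were seen. Of 93 such genes with a CHR and at least 2 NF-Y boxes in the 250 bases before the start site, 15 belonged to the cell division, Rb/E2F, DNA replication or mitosis lists. Of the 93, 36 (38.7%) were lowest on array 3 and 18 (19.4%) had a signal on array 1 at least 1.5 times that on array 3, against 27.9% and 5.63% of the 7324 genes with a promoter entry. Of the 77 genes with these motifs that stood in no list used here, 21 (27.3%) were lowest on array 3 and 6 (7.79%) reached the ratio of 1.5, against 27.5% and 5.22% of the 7216 genes outside the lists. The median ratio of array 1 to array 3 was 1.13 over the 93 genes, 1.10 over the 77 and 1.09 over the 7324.

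Below the median mean level, several mitosis and DNA replication genes ranged by 1 log2 unit or more, and their values are given here after being seen. Pbk, a mitotic kinase, gave 84.8, 76.2 and 25.3 on arrays 1, 2 and 3, Ttk, a kinase of the spindle checkpoint, 23.1, 38.7 and 0.895, and Ccnf, a cyclin of the F-box family, 37.6, 46.8 and 5.75. Mcm3 gave 74.8, 58.6 and 21.3, Pold1 of DNA polymerase delta 52.9, 43.1 and 14.2, and Uhrf1, which carries DNA methylation through replication, 37.1, 21.9 and 9.21. All 6 were lowest on array 3, where 27.2% of all named genes were. Chaf1a, a histone chaperone of replication, gave 52.0, 6.46 and 19.5 and was lowest on array 2. Over all named genes 4.46% ranged by 1 log2 unit or more, against 1.49% of those above the median mean level. On array 3, Ttk, Ccnf and Uhrf1 lay below the 25th percentile of the array (9.23).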
